A study of Populus x canadensis with 4 samples.

Results

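Leaf microRNAs of a hybrid poplar were compared between the lowest dose of a phenolic acid and no phenolic acid. The plants were rooted cuttings of Populus × euramericana 'Neva', listed in the labels as Populus x canadensis, which had grown in water culture for 90 days. The treated plants then spent 3 days at 2 mM para-hydroxybenzoic acid (pHBA), and the control plants spent the same 3 days at 0 mM. Libraries at 4 and 8 mM complete the series and are given here only beside a result. RNA of plants on the same treatment was mixed before library making, so every dose was 1 library. All differences below are therefore ratios of 1 library to 1 library, with no replicate check and no p-value. The rule for inclusion was a mean of at least 10 normalized reads over the 4 libraries after rows of the same sequence had been summed, and 350 of 529 distinct sequences met it.

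The table assigned 2640653 reads at 0 mM and 4998878 at 2 mM, and 409 and 438 of the 529 sequences had reads in these libraries. Levels are the authors' normalized reads, the read count times 1 factor for each library. A listed 0 is read as at most 3 counts, which equals 4.07 normalized reads at 0 mM and 2.96 at 2 mM. Folds are plain ratios of normalized reads with an exact 95% conditional binomial interval. Intervals and floors cover counting error only, since the reads were PCR copies that no molecular identifiers tell apart, and do not stand for independent molecules. Counts at least 2-fold higher or lower were taken on log2(normalized reads + 1), a scale that understates differences of scarce sequences. Just inside the limit lay ptc-MIR399b-p5, with a mean of 10.03 that came from the 8 mM library alone, and bra-MIR824-p5_2ss5GT18TC at 10.17. Just outside it were han-MIR3630-p5_2ss14GA17CA at 9.55 and gma-miR403a_1ss21GT at 9.39.

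Plant microRNAs are cut by a Dicer-like enzyme from a hairpin precursor as a duplex. The guide strand enters an ARGONAUTE protein and directs cleavage or repression of messenger RNAs with a matching site, while the other strand, often written with a star, is usually degraded. Many conserved families act on transcription factors of leaf growth, and others on copper proteins, nutrient transport, disease resistance genes or the small RNA machinery itself. pHBA is a phenolic acid that can accumulate in plantation soil and hold back growth. Names are those of the file: ptc marks Populus trichocarpa, other prefixes mark other species, p5 and p3 mark a hairpin arm, and R+1 or L+1 marks an extra base at the 3′ or 5′ end.

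The sequences that carry the main contrasts follow, 5′ to 3′ as deposited, with T for U and with bases 2 to 8, the seed, in capitals. The first set shows sequences that were higher at 2 mM.
ptc-miR396c: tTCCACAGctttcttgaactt
ptc-miR162a: tCGATAAAcctctgcatccag
ptc-miR530a_R+1: tGCATTTGcacctgcacctta
ptc-MIR481d-p5: tTCTTTGAcatggtatcagagcct
The second set shows sequences that were lower at 2 mM.
ptc-miR156g: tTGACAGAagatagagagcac
ptc-miR156a: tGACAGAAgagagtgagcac
ptc-miR168a-5p: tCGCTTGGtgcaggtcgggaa
The third set pairs a leading strand with the strand from the other side of the hairpin, because these strands had different ratios within a family.
ptc-miR160a: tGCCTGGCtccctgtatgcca
ptc-MIR160d-p3: gCGTGCGAggagccaagcata
ptc-MIR396a-p3: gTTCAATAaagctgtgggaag
ptc-miR166a: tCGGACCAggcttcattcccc
ptc-MIR166c-p5: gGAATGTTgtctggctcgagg
ptc-MIR156f-p3: tGCTCACTtctcttctgtcagc
The last set shows forms of miR398 and of miR6300 that differ only in added 3′ bases, because their ratios differed.
ptc-miR398b: tGTGTTCTcaggtcgcccctg
stu-miR398a-3p_R+1_1ss2AG: tGTGTTCTcaggtcgcccctgt
nta-miR398_R+2: tGTGTTCTcaggtcgcccctgtt
gma-miR6300: gTCGTTGTagtatagtgg
gma-miR6300_R+5_1: gTCGTTGTagtatagtggtaagt

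At 2 mM, 73 of the 350 sequences stood higher than at 0 mM by at least 2-fold (20.9%), and 83 stood lower by as much (23.7%), which left 194 in between. Their median log2 ratio came to 0.04. The scale of the libraries bears on this balance: with both libraries set to the same total, every log2 ratio is lower by 0.46 before the pseudocount, and the counts become 45 higher and 110 lower. The sign then turns from above to below 0 for 47 of the 350 sequences, none of them past the 2-fold limit, and for 6 of the 12 list medians given below. Ratios between strands or between end forms of a family do not depend on this choice, apart from the pseudocount, and later paragraphs give them. Counts past the 2-fold limit do depend on it, also within a family. Reads were present at 2 mM but listed at 0 in the untreated library for 8 of the 350 sequences, the reverse held for 4, and 1 had 0 in both libraries. The plot of ratio against level shows most of the widest ratios among scarce sequences. Among the 30 sequences with means of at least 10000 normalized reads, 4 were higher and 4 lower by the 2-fold limit.

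**Figure D1:**
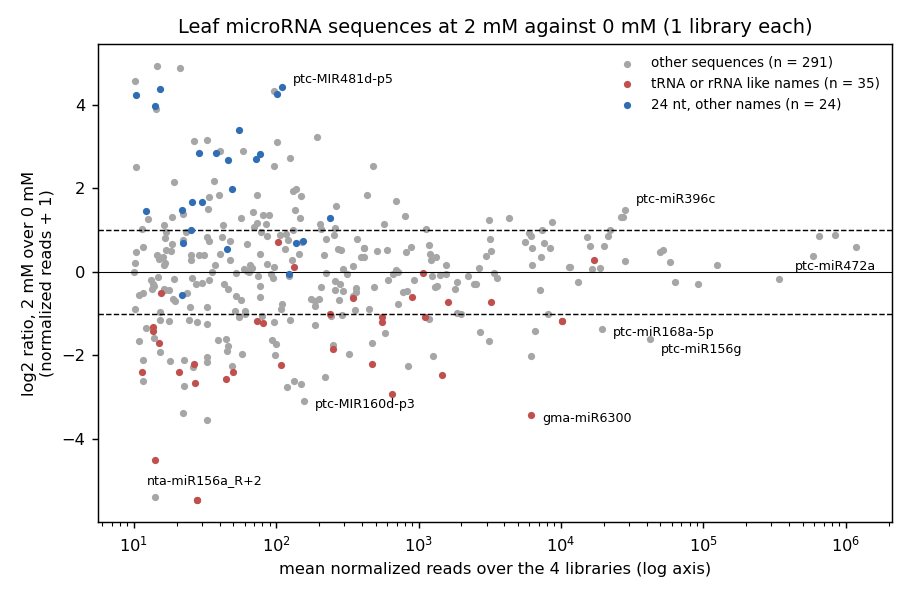
Each point is 1 sequence, with its mean normalized reads over the 4 libraries on a log axis against its log2 ratio of 2 mM over 0 mM. Dashed lines mark the 2-fold limits, and red and blue points mark the tRNA or rRNA like names and the 24 nt sequences, most of which lie low and high respectively.

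A group of 35 sequences bears microRNA names that are widely regarded as pieces of transfer or ribosomal RNA, among them the miR6300 and miR8175 names. None of the 35 was 2-fold higher and 26 were lower, with a median log2 ratio of -1.32 against 0.04 over all members. This group had been picked with earlier results of these data known. A scarce sequence that was high only at 0 mM could pass the filter through that library alone, which bears on the count of 26. ath-miR8175_L-1_1ss2AT passed in this way, with 35.3, 5.92, 0 and 4.46 normalized reads at 0, 2, 4 and 8 mM. Of 11 members with means of 10 to under 30 normalized reads 10 were lower, and of 11 with means of 100 to under 1000 it was 7. The 18 nt form gma-miR6300 had 16341, 1512, 3195 and 3558 normalized reads at 0, 2, 4 and 8 mM, and was 10.8-fold lower (95% interval 10.2 to 11.4) at 2 mM. Its 23 nt form gma-miR6300_R+5_1 had 11300.3, 5029, 14523 and 10136 normalized reads at 0, 2, 4 and 8 mM, which gives 2.25-fold lower (95% interval 2.17 to 2.33). The form gma-miR6300_R+5_2, which has another base near its 3′ end, holds exactly the same values. This level therefore cannot be assigned to either sequence alone. The group's share of table reads was 1.96% at 0 mM and 0.72% at 2 mM. Without it, 315 sequences remained, of which 73 were higher and 57 lower, with a median log2 ratio of 0.16. The part of such fragments in the results for other sequences was not tested, and the group is left out of the analyses of length, strand and ends that follow.

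Families that steer leaf phase and growth supplied 70 members, of which 18 were higher (25.7%), 20 lower (28.6%) and 32 between. Their median log2 ratio was 0.21, or -0.25 with equal totals. The shares over all members, 20.9% higher and 23.7% lower, stand beside this list and each list below. miR156, which holds back SPL transcription factors and thereby keeps shoots juvenile, was lower: ptc-miR156g had 69626, 23017, 36339 and 39271 normalized reads at 0, 2, 4 and 8 mM. It was 3.02-fold lower (95% interval 2.98 to 3.07) at 2 mM, where its level was the lowest of the 4 libraries. The 20 nt form ptc-miR156a had 13095 normalized reads at 0 mM and 3211 at 2 mM, 4.08-fold lower (95% interval 3.92 to 4.24). miR172, whose AP2-type targets act later in the same phase change, was led by ptc-miR172a with 1710.2 normalized reads at 0 mM and 1288 at 2 mM, 1.33-fold lower (95% interval 1.23 to 1.44). Both of these families were thus lower at 2 mM in these libraries.

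miR396, which limits growth-regulating factors and so leaf cell number, went the other way in its leading strands. ptc-miR396c had 14489, 40491, 29716 and 28017 normalized reads at 0, 2, 4 and 8 mM, and was 2.79-fold higher (95% interval 2.74 to 2.86) at 2 mM. ptc-miR396a had 19358, 48368, 19032 and 18774 normalized reads at 0, 2, 4 and 8 mM, so that its higher level stood at 2 mM alone among the 4 libraries. All 5 sequences with the seed TCCACAG were at least 2-fold higher, and their summed level was 2.65-fold higher (95% interval 2.61 to 2.69).

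Other growth families differed among themselves. ptc-miR319a, a regulator of TCP factors of leaf shape, had 773, 1969.7, 195 and 255 normalized reads at 0, 2, 4 and 8 mM, highest at 2 mM. ptc-miR394a-5p, which targets an F-box gene of leaf and meristem form, had 5600.0, 11277, 5628 and 6777 normalized reads at 0, 2, 4 and 8 mM, and was also highest at 2 mM. By contrast ptc-miR159a, which acts on GAMYB-type factors, was 1.22-fold lower (95% interval 1.20 to 1.23), and ptc-miR164a, which acts on NAC factors of leaf margins, was 1.19-fold higher (95% interval 1.17 to 1.21) but is lower with equal totals. ptc-miR166a, which limits HD-ZIP III factors of upper leaf fate, had 487394, 632928, 536308 and 692479.9 normalized reads at 0, 2, 4 and 8 mM. Its 2 mM level was 1.30-fold higher (95% interval 1.29 to 1.30), a difference that turns negative with equal totals.

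Auxin families gave 33 members, with 7 higher (21.2%), 5 lower (15.2%) and 21 between, against 20.9% higher and 23.7% lower over all members. Their median log2 ratio was 0.16, or -0.30 with equal totals. ptc-miR160a, which targets repressing auxin response factors, had 4006 normalized reads at 0 mM and 3923 at 2 mM, a ratio whose counting interval included 1. The leading form of miR167, which targets activating auxin response factors, was ptc-miR167f-5p_R+1 with 13903, 34284, 34066 and 26324 normalized reads at 0, 2, 4 and 8 mM, and was 2.47-fold higher (95% interval 2.41 to 2.52) at 2 mM. Its shorter relative ptc-miR167e had 11064 normalized reads at 0 mM and 11660.1 at 2 mM, 1.05-fold higher (95% interval 1.02 to 1.08) but lower with equal totals. ptc-miR393a-5p_R+1, which targets auxin receptor genes of the TIR1 type, had 11032 normalized reads at 0 mM and 11902 at 2 mM, a direction that also turns with equal totals. ptc-miR390a, which starts the TAS3 trans-acting RNA pathway, had 277 normalized reads at 0 mM and 404 at 2 mM, 1.46-fold higher (95% interval 1.23 to 1.74).

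GRAS and NF-YA regulators counted 32 members, with 6 higher (18.75%), 6 lower (18.75%) and 20 between, and a median of -0.02. ptc-miR171e, a regulator of HAM-type GRAS factors, had 2659 normalized reads at 0 mM and 2500.2 at 2 mM. vvi-miR171f had 51.5, 301, 22.5 and 9.80 normalized reads at 0, 2, 4 and 8 mM, with its high value in the 2 mM library only. ptc-miR169ac_R+2_1ss13AG, which targets NF-YA subunits, had 3221 normalized reads at 0 mM and 6093 at 2 mM, 1.89-fold higher (95% interval 1.80 to 1.98). ptc-miR473a-5p_R+1 was lower, with 12334 normalized reads at 0 mM and 6134 at 2 mM, while ptc-miR477a-5p was higher, with 816 normalized reads at 0 mM and 1651 at 2 mM.

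Copper and laccase families gave 17 members, none of them 2-fold lower, 3 higher (17.6%) and 14 between, with a median log2 ratio of 0.58, or 0.12 with equal totals. These families act on copper proteins such as superoxide dismutase, plantacyanin, laccase and polyphenol oxidase, and are known to rise when copper is short. ptc-miR398b had 17252, 30505, 4321 and 8949 normalized reads at 0, 2, 4 and 8 mM, and was 1.77-fold higher (95% interval 1.73 to 1.81) at 2 mM. ptc-miR408-3p had 18981, 29194, 6448 and 9728 normalized reads at 0, 2, 4 and 8 mM. ptc-miR1444a_R+1 had 21054, 32182, 12918 and 14626 normalized reads at 0, 2, 4 and 8 mM, and ptc-miR397a had 1122, 1557, 157 and 441 normalized reads at 0, 2, 4 and 8 mM. In all 4 of these sequences the 2 mM library was the highest and the 4 mM library the lowest. With equal totals their 2 mM levels come closer to those at 0 mM, since every ratio is lowered alike.

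Phosphate and sulphate families counted 8 members, with 2 higher (25%), 3 lower (37.5%) and 3 between, and a median of -0.47. ptc-miR827, which targets SPX-domain genes of phosphate balance, had 1115, 339, 177 and 255 normalized reads at 0, 2, 4 and 8 mM, 3.29-fold lower (95% interval 2.89 to 3.74) at 2 mM. ptc-miR399f, which targets the PHO2 ubiquitin conjugase that restrains phosphate uptake, had 157 normalized reads at 0 mM and 74.9 at 2 mM. The sulphate family miR395 was present only as ptc-MIR395a-p5 with 14.9, 117, 9.16 and 18.7 normalized reads at 0, 2, 4 and 8 mM, a scarce form that stood high in the 2 mM library.

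Regulators of the small RNA machinery gave 15 members, with 3 higher (20%), 6 lower (40%) and 6 between, and a median of -0.44. miR168 targets ARGONAUTE1, and ptc-miR168a-5p had 35066, 13605, 9830.2 and 18996 normalized reads at 0, 2, 4 and 8 mM. It was 2.58-fold lower (95% interval 2.52 to 2.63) at 2 mM, and its other strand ptc-miR168a-3p, with 5049 normalized reads at 0 mM and 1874 at 2 mM, was 2.69-fold lower (95% interval 2.55 to 2.85). miR162 targets DICER-LIKE1, and ptc-miR162a had 12726, 25478, 25168 and 24813 normalized reads at 0, 2, 4 and 8 mM, 2.00-fold higher (95% interval 1.96 to 2.05) at 2 mM and nearly level across the 3 treated libraries. In miR403, the family that targets ARGONAUTE2, the most abundant form ptc-miR403c-5p had 2554 normalized reads at 0 mM and 2702 at 2 mM, and its interval included 1. The other strand, ptc-miR403a, was lower, with 1661 normalized reads at 0 mM and 1407 at 2 mM. Its log2 ratio was -0.24 (95% interval -0.35 to -0.13). Levels alone do not tell which of these miR403 strands acts on ARGONAUTE2. The regulators of Dicer and of ARGONAUTE1 thus differed in opposite directions between these libraries.

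Disease resistance families gave 20 members, with 1 higher (5%), 3 lower (15%) and 16 between. Their median was 0.15, or -0.31 with equal totals, yet they held the largest differences in reads. ptc-miR472a had 798946 normalized reads at 0 mM and 1211447 at 2 mM, 1.52-fold higher (95% interval 1.51 to 1.52). ptc-miR472b had 454856 normalized reads at 0 mM and 840936 at 2 mM, 1.85-fold higher (95% interval 1.84 to 1.86). ptc-miR1448_L+1R+1 had 475115 normalized reads at 0 mM and 854652 at 2 mM, 1.80-fold higher (95% interval 1.79 to 1.81). Over all sequences that were higher at 2 mM the differences summed to 1577402 normalized reads, and these 3 sequences made up 74.7% of that sum. The size of the sum follows the unequal normalized totals of the libraries, 3581384 and 4928275: with equal totals gains and losses balance, 130 sequences gain and 219 lose in place of 177 and 172, and the 3 sequences make up 82.2% of the gains. The related ptc-miR482a.1_L+5 was on the other side, with 377899 normalized reads at 0 mM and 333694 at 2 mM, 1.13-fold lower (95% interval 1.13 to 1.14). On the authors' scale losses summed to -230523 normalized reads, and ptc-miR156g and ptc-miR482a.1_L+5 gave 20.2% and 19.2% of them.

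Among smaller lists, ptc-miR828a, a regulator of phenylpropanoid MYB factors, had 100.4 normalized reads at 0 mM and 136 at 2 mM, which turns lower with equal totals, and ath-miR858b of the same list had 1644 normalized reads at 0 mM and 1598 at 2 mM. Of its 3 members 1 was higher and none lower, with a median of 0.44, or -0.02 with equal totals. Of 8 members that target pentatricopeptide repeat genes 1 was higher and none lower, with a median of 0.16, or -0.29 with equal totals. The abundant ptc-miR475a-3p had 13398 normalized reads at 0 mM and 24116 at 2 mM, 1.80-fold higher (95% interval 1.76 to 1.84). Predicted candidates gave 27 members, and their median was 0.69: 12 were higher by the 2-fold limit (44.4%), 2 were lower (7.4%) and 13 lay inside it. With equal totals 8 were higher and 3 lower, and the candidates' summed level had a log2 ratio of 0.05. PC-3p-102599_40 had a listed 0 at 0 mM and 29.6 normalized reads at 2 mM, at least 7.27-fold higher with 3 counts in place of 0. Its exact interval starts lower, at 5.56-fold. PC-3p-70722_70, with a listed 0 and 28.6 normalized reads, was at least 7.03-fold higher in the same way. The filter let both of these candidates in only through the treated libraries. The same held for PC-3p-144023_24, which had a listed 0 at 0 mM and a log2 ratio of 4.23. This bears on the count of 12, of which more may have passed in this way. PC-3p-71534_69 went the other way, with 67.8 normalized reads at 0 mM and 4.93 at 2 mM. The remaining 82 members with other family numbers included 19 higher (23.2%) and 12 lower (14.6%), with a median of 0.06, or -0.40 with equal totals.

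**Figure D2:**
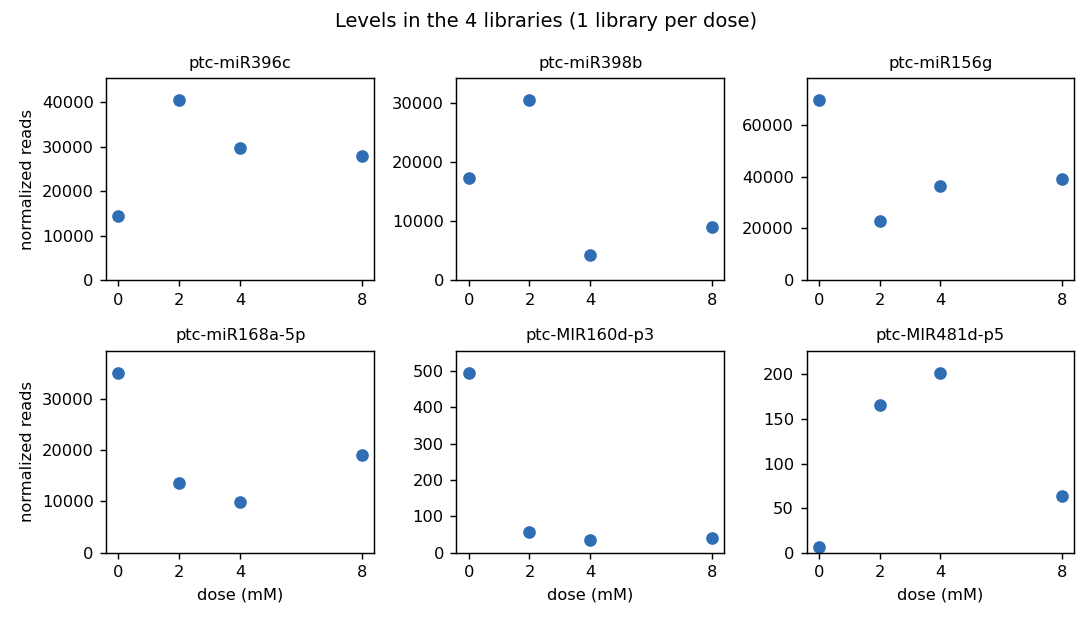
Each panel gives 1 sequence, with the dose in mM on the horizontal axis and normalized reads on the vertical axis, and each point is 1 library. ptc-miR396c and ptc-miR398b were highest at 2 mM, ptc-miR156g was lowest there, and the 3 treated libraries lay on the same side of the untreated library for ptc-miR396c, ptc-miR156g, ptc-miR168a-5p, ptc-MIR160d-p3 and ptc-MIR481d-p5. The scarce ptc-MIR481d-p5 passed the filter only through the treated libraries, which bears on its order.

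Summed by family number, 11 of 84 families were at least 2-fold higher (13.1%) and 14 at least 2-fold lower (16.7%). With equal totals these were 5 and 21, and 17 family totals turned from above to below 0, miR164, miR166 and miR169 among them. The 5 higher totals were those of miR395, miR481, miR7836, miR7838 and miR8005. The miR7836 total comes from ptc-MIR7836-p3, which had a listed 0 at 0 mM and passed the filter only through the treated libraries. Family members often disagreed. On the authors' scale, in 32 families with at least 4 members, miR398, miR481 and miR530 had every member above a log2 ratio of 0, and miR168 and miR6300 had every member below it. The filter also bears on miR481 and miR530. Of the 5 miR481 members of 24 nt, 4 had under 10 normalized reads at 0 mM, as had htu-miR530_R+3, and these passed only through the treated libraries. In 12 of the 32 families there were 2-fold calls in both directions on that scale, among them miR156, miR166, miR167, miR396 and miR482. With equal totals miR166, miR167 and miR396 kept calls in both directions. miR156 then had 0 higher and 10 lower, and miR482 had 0 higher and 2 lower. Of 36 families with at least 3 members, 27 had a gap of at least 2 on the log2 scale between their highest and lowest member. The total of miR396 was 2.32-fold higher, although ptc-MIR396a-p3 had 3023 normalized reads at 0 mM and 748 at 2 mM and was 4.04-fold lower (95% interval 3.72 to 4.39).

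A contrast inside families was that between the strands of the hairpin. The lead strand of a family was set as that of its most abundant sequence, with at least 15 identical bases, and an opposite strand had to pair with it over at least 13 bases, without gaps and counting G:T pairs. That rule was chosen after the table had been seen. Among 172 lead-strand sequences 38 were 2-fold higher and 25 lower, with a median log2 ratio of 0.33. Among 77 opposite-strand sequences 10 were higher and 24 lower, with a median of -0.42. With equal totals the medians were -0.12 and -0.85. A further 39 sequences could not be placed.

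Within a family the comparison is free of the library scale, because both strands come from the same libraries. In 27 of 37 families with both strands, the opposite strand was lower relative to the lead strand at 2 mM than at 0 mM, and in 10 it was higher. The exact conditional 95% interval of this ratio of ratios, from the read counts of both strands, lay below 1 in 20 families (54.1%), above 1 in 6 (16.2%) and included 1 in 11. The median family had an opposite strand 1.52-fold lower relative to its lead strand. Of the 30 families with at least 100 opposite-strand reads over both libraries, 22 were lower and 8 higher.

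The clearest case was miR160. Its lead strand summed to 4758 normalized reads at 0 mM and 4671 at 2 mM, while its opposite strand summed to 1158 and 178. The opposite strand's share of the family was 19.6%, 3.68%, 6.68% and 6.18% at 0, 2, 4 and 8 mM. ptc-MIR160d-p3 had 495, 57.2, 35.8 and 40.1 normalized reads at 0, 2, 4 and 8 mM, and was 8.66-fold lower (95% interval 6.55 to 11.6) at 2 mM, while its guide ptc-miR160a stayed near its untreated level. ptc-miR160b-3p had 506, 87.7, 145 and 146 normalized reads at 0, 2, 4 and 8 mM, so that both star forms were lower in all 3 treated libraries. miR396 followed with an opposite-strand share of 15.4%, 3.04%, 6.27% and 7.25%.

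In miR166 the opposite-strand share was 2.15% at 0 mM and 0.638% at 2 mM, since ptc-MIR166c-p5 had 11101, 4139.7, 5136 and 5787 normalized reads at 0, 2, 4 and 8 mM. In miR482, ptc-MIR482a-p5 had 7366, 2328, 1482 and 1394 normalized reads at 0, 2, 4 and 8 mM, and the share was 1.56% at 0 mM and 0.625% at 2 mM. The strands of miR472, miR162, miR167, miR164, miR475 and miR408 differed in the same direction, with ratios of ratios between 0.24 and 0.47. Some opposite strands may guide silencing themselves, and these values concern levels only.

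The interval lay above 1 in miR156, miR169, miR1450, miR1447, miR476 and miR473. In miR156 the opposite-strand share was 11.8%, 38.6%, 27.2% and 25.7% at 0, 2, 4 and 8 mM, a ratio of ratios of 4.71 (95% interval 4.57 to 4.85). The lead strand summed to 83313 normalized reads at 0 mM and 26402 at 2 mM, and the opposite strand to 11140 and 16624, so a lower lead strand entered this ratio too. Most of the opposite strand's gain came from ptc-MIR156f-p3, which had 5030.3, 11411, 9004 and 9430.1 normalized reads at 0, 2, 4 and 8 mM. It was 2.27-fold higher (95% interval 2.19 to 2.35) at 2 mM. Of the family's 7 opposite forms 4 were at least 2-fold lower, among them ptc-MIR156i-p3, which had 1961 normalized reads at 0 mM and 412 at 2 mM and was 4.76-fold lower (95% interval 4.27 to 5.32). Without miR156, 27 of 36 families were lower and 9 higher. In miR1447, ptc-MIR1447-p5 had 5243 normalized reads at 0 mM and 6708 at 2 mM while ptc-miR1447 had 12461 normalized reads at 0 mM and 10495 at 2 mM, so that the strands differed by a ratio of ratios of 1.52 (95% interval 1.45 to 1.59). In miR168 both strands were lower to a like degree, with a ratio of ratios of 0.942 (95% interval 0.889 to 0.999).

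**Figure D3:**
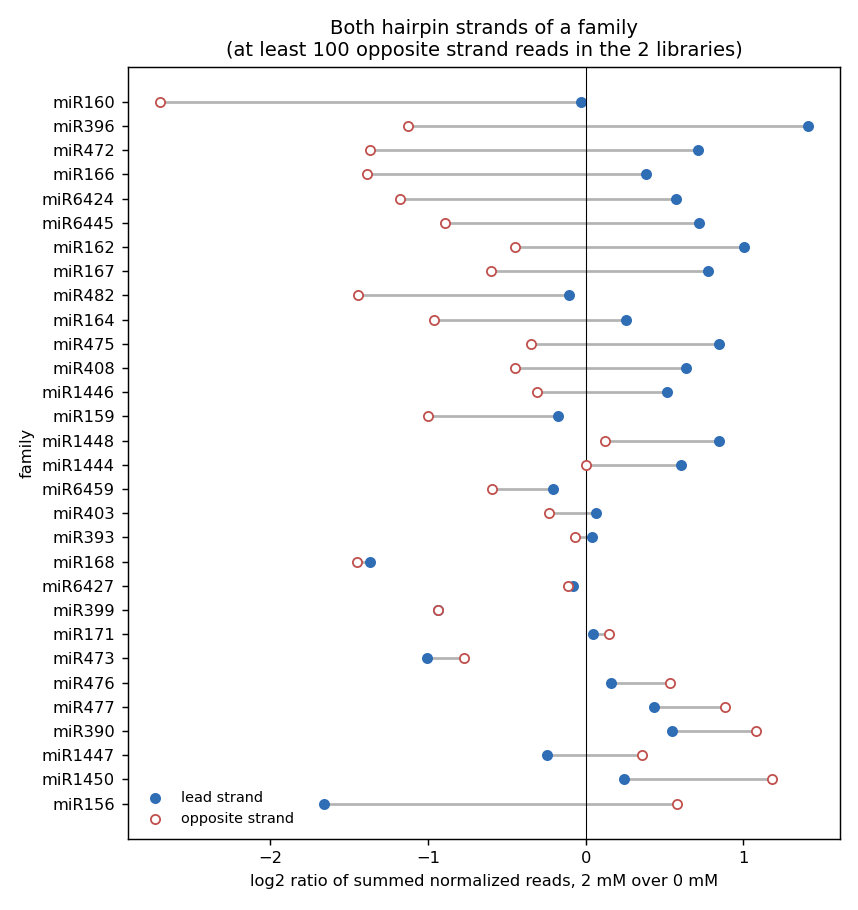
Each row is a family with at least 100 opposite-strand reads in the compared libraries, and the horizontal axis is the log2 ratio of summed normalized reads at 2 mM over 0 mM. The open circle for the opposite strand lies left of the filled circle for the lead strand in 22 of the 30 families, and miR156 at the bottom is the widest exception.

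The first base of the sequence, which in plants helps to sort small RNAs among ARGONAUTE proteins, followed a related split. Of 162 sequences that start with T (U in the RNA), the base that ARGONAUTE1 prefers, 41 were higher and 16 lower, with a median log2 ratio of 0.40. Of 48 that start with G, 9 were higher and 20 lower, with a median of -0.76. A start with A gave 14 higher and 12 lower of 55, and C gave 9 and 9 of 50. With equal totals a start with T gave 21 higher and 21 lower with a median of -0.04, and a start with G gave 7 higher and 25 lower with a median of -1.22. Strand and first base are linked, since many opposite strands begin with G. Among opposite strands alone, 29 began with G, of which 3 were higher and 15 lower with a median of -1.05, and 18 began with T, of which 4 were higher and none lower with a median of 0.32.

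Ratios differed with length. Of 6 sequences of 18 nt, 4 were lower and none higher, and of 163 sequences of 21 nt, 27 were higher and 29 lower with a median log2 ratio of 0.00. The median was 0.49 for 63 sequences of 22 nt and 1.02 for 17 of 23 nt. Of 24 sequences of 24 nt, 17 were 2-fold higher and none lower, with a median of 1.82. At 25 nt the median was smaller again: of 7 sequences 1 was higher and none lower, with a median of 0.39, or -0.05 with equal totals. With equal totals all 6 sequences of 18 nt were lower, 21 nt gave 17 higher and 43 lower with a median of -0.43, the median at 22 nt was 0.03, and 24 nt gave 16 higher and none lower with a median of 1.40. In plants 24 nt is the usual product length of DICER-LIKE3, whose small RNAs direct DNA methylation, and canonical microRNAs are mostly 21 nt.

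The 24 nt sequences were scarce: their sum was 631 normalized reads at 0 mM and 1862 at 2 mM, or 0.0176% and 0.0378% of table reads. At 4 and 8 mM the shares were 0.0423% and 0.0244%. The filter bears on this count, because a sequence scarce at 0 mM could pass only through the treated libraries and then had to be higher there. Of the 24 sequences 12 had under 10 normalized reads at 0 mM, and all 12 were 2-fold higher, among them 4 of the 5 from miR481. The other 12 had at least 10 normalized reads at 0 mM, and of these 5 were higher and none lower. Among 21 nt sequences with means under 1000 normalized reads and at least 10 at 0 mM, 13 of 106 were higher and 22 lower.

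The highest 24 nt sequence was ptc-MIR481d-p5 with 6.78, 166, 202 and 63.7 normalized reads at 0, 2, 4 and 8 mM, 24.5-fold higher (95% interval 10.3 to 76.6), which rests on 5 reads at 0 mM and passed the filter through the treated libraries. From the other arm, ptc-MIR481b-p3 had 12.2, 92.7, 135 and 66.8 normalized reads at 0, 2, 4 and 8 mM, again lowest without pHBA. mtr-miR166c_L+5R-2 had a listed 0 at 0 mM and 19.7, 23.7 and 17.8 normalized reads at 2, 4 and 8 mM. A scarce sequence of another length was gma-MIR4995-p3_1ss19GC, of 22 nt, with 6.78, 156, 125 and 99.8 normalized reads at 0, 2, 4 and 8 mM. It too passed the filter only through the treated libraries. From the other arm, gma-MIR4995-p5 had 362 normalized reads at 0 mM and 463 at 2 mM, a difference that turns with equal totals.

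**Figure D4:**
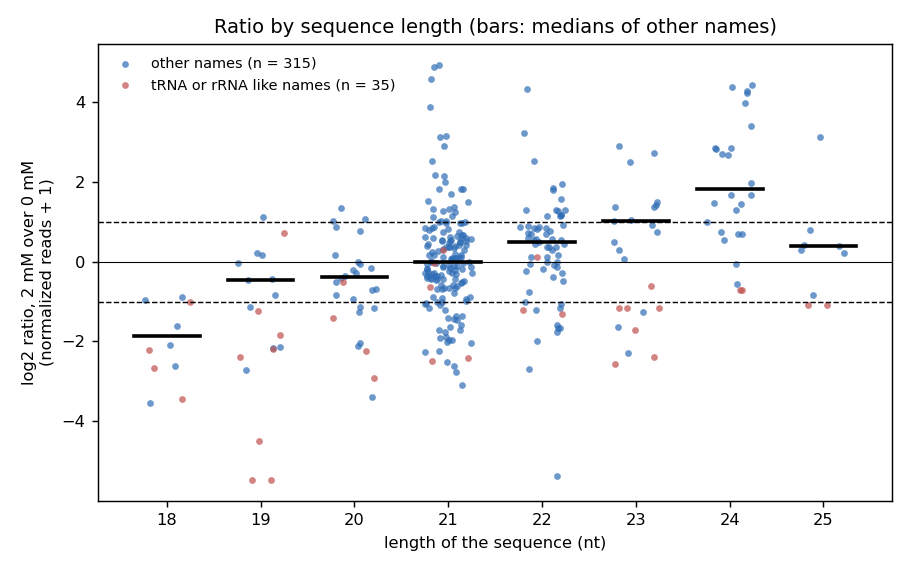
Each point is 1 sequence, with its length in nt against its log2 ratio of 2 mM over 0 mM, and bars mark medians without the tRNA or rRNA like names. On the authors' scale the medians were -1.85 at 18 nt, 0.00 at 21 nt, 1.82 at 24 nt and 0.39 at 25 nt. Of the 24 sequences of 24 nt, 12 had under 10 normalized reads at 0 mM and passed the filter only through the treated libraries.

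Forms that differ only in added bases at an end gave another comparison within families, again free of the library scale. Among 25 pairs from 12 families in which the longer form added 1 to 3 bases at the 3′ end, the longer form was higher relative to the shorter in 18 and lower in 7. The interval lay above 1 in 12 pairs (48%) and below 1 in 5 (20%). Among 15 pairs from 9 families with added 5′ bases, the longer form was relatively higher in 12 and lower in 3, and the interval lay above 1 in 6 pairs (40%) and below 1 in none (0%). The filter bears on these counts. The longer forms mtr-miR166c_L+5R-2, htu-miR530_R+3 and hpe-miR162a_R+3 had under 10 normalized reads at 0 mM and passed only through the treated libraries. On the other side, nta-miR156a_R+2 and gma-miR156b_L+3R-1_1ss14GT had under 10 at 2 mM. Pairs of a family share forms, and mtr-miR167b-5p_R+1_1 and mtr-miR167b-5p_R+1_2 share all their values, so the pairs are not independent. The forms are those with names in the table, and bases that the plant adds cannot be told apart from another gene copy.

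The series of miR398 shows the pattern at the 3′ end. ptc-miR398b was 1.77-fold higher (95% interval 1.73 to 1.81), with 1 more T stu-miR398a-3p_R+1_1ss2AG had 199 normalized reads at 0 mM and 595 at 2 mM and was 2.99-fold higher (95% interval 2.49 to 3.60), and with 2 more nta-miR398_R+2 had 23.1 normalized reads at 0 mM and 177 at 2 mM and was 7.70-fold higher (95% interval 4.67 to 13.5). In miR396 the same order held, with 2.79-fold higher (95% interval 2.74 to 2.86) for ptc-miR396c and 5.79-fold higher (95% interval 4.72 to 7.18) for ath-miR396b-5p_R+1, which had 141 normalized reads at 0 mM and 817 at 2 mM. At the 5′ end, gma-miR394a-5p_L+1 had 65.1 normalized reads at 0 mM and 261 at 2 mM and was 1.99-fold higher relative to ptc-miR394a-5p (95% interval 1.46 to 2.78).

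miR156 ran against this order. ptc-miR156a was 4.08-fold lower (95% interval 3.92 to 4.24), gma-miR156a_R+1 with 1 added T had 299.7 normalized reads at 0 mM and 43.4 at 2 mM and was 6.91-fold lower (95% interval 4.98 to 9.78), and nta-miR156a_R+2 had 40.7 normalized reads at 0 mM and a listed 0 at 2 mM, at least 13.8-fold lower with 3 counts in place of 0 (its exact interval starts at 10.5-fold). In miR168 the 3′ extension of ptc-miR168a-3p was also relatively lower, with a ratio of ratios of 0.66 (95% interval 0.48 to 0.91). The 7 pairs with a relatively lower longer 3′ form came from miR156, miR167, miR168, miR172 and miR397.

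**Figure D5:**
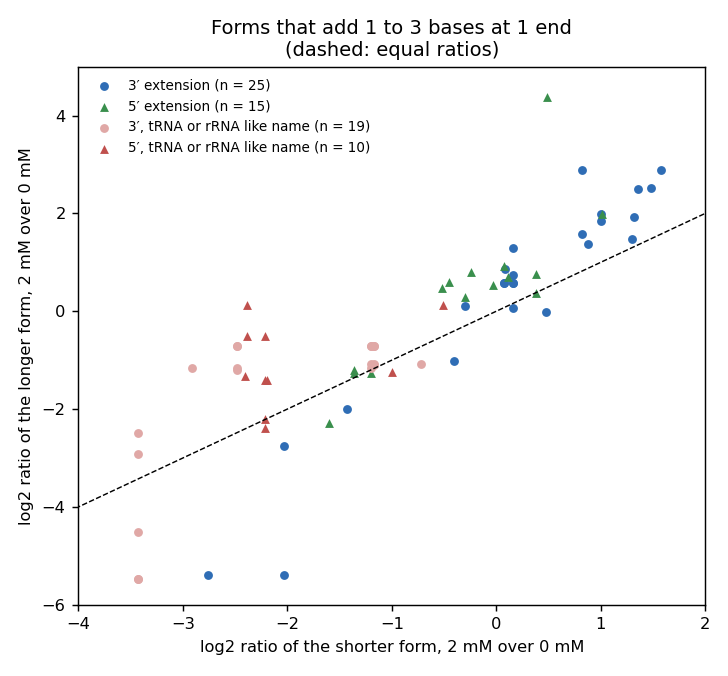
Each point is a pair of forms, with the log2 ratio of 2 mM over 0 mM of the shorter form on the horizontal axis and that of the longer form on the vertical axis. The dashed line marks equal ratios, and 30 of the 40 pairs without tRNA or rRNA like names lie above it.

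Sequences that share a seed could also be grouped: on the authors' scale, of 19 seeds with at least 3 members, 10 had all members on the same side of a log2 ratio of 0, 6 above and 4 below. The seed GCATTTG of miR530 had 4 members, all at least 2-fold higher, with a summed ratio of 2.46 (95% interval 2.33 to 2.61), and ptc-miR530a_R+1 led it with 1885, 4435, 2666 and 3492 normalized reads at 0, 2, 4 and 8 mM. Its member htu-miR530_R+3 had 2.26 normalized reads at 0 mM and passed the filter only through the treated libraries. The seed CGATAAA of miR162 had 3 members, all at least 2-fold higher, with a summed ratio of 2.01 (95% interval 1.96 to 2.05). Of these, hpe-miR162a_R+3 had 9.49 normalized reads at 0 mM and passed in the same way. The seed GACAGAA of miR156 had 3 members, all at least 2-fold lower, with a summed ratio of 0.24 (95% interval 0.23 to 0.25). Members of a seed group are near-identical and can share reads, so their agreement is not independent.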

How the data were processed

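Leaf small RNA was sequenced in 4 libraries, 1 per dose. The submitters' processing notes name bcl2fastq 1.8.4 for base calls. The mapper, the annotation and the build were not given in the sources used here. In the raw columns the authors deposited estimated counts, often fractions, and the deposited normalized columns hold a linear signal, which was found to equal the counts multiplied by a library factor (1.356 at 0 mM, 0.986 at 2 mM, 0.833 at 4 mM, 0.891 at 8 mM). The 738 rows were summed per sequence, since 156 sequences stand in several rows. No column of per-sample values was left out. The members, lists, strand rule and naming rule were chosen with earlier results of these data known. Named sequences are the 10 highest and lowest ratios, the 20 most abundant, the leading member of each listed family, the widest families' extremes, forms of both arms and the sequences at the filter's edge. End-variant forms, seed groups and 24 nt sequences were added after values were seen. Ratios used log2(value + 1), with counts rounded for intervals. An opposite strand also needed at least 3 more pairing than identical bases. Computation used Python 3.11.15, pandas 2.3.3, numpy 2.4.6, scipy 1.17.1 and matplotlib 3.10.9, and was tested on simulated data. Alternatives were equal totals, median-of-ratios factors, pseudocount 5, no filter, a filter at 50 and 1 row per sequence. Of the sequences with at least 20 reads, 6 share all values with another.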

Additional observations from a re-analysis of the deposited data

How the results depend on the processing

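No paired analysis was possible because each dose is 1 library and the labels give no replicate numbers. For the same reason no replicate could be left out. With equal table totals the sequences at least 2-fold higher went from 73 to 45 and those lower from 83 to 110, and family totals from 11 to 5 higher and from 14 to 21 lower. The median log2 ratio went to -0.40 for all members, -0.47 for the GRAS and NF-YA list, -0.30 for the auxin list and -0.40 for other family numbers. A filter at a mean of 50 left fewer sequences, with 43 higher, 46 lower, 7 family totals higher, 9 lower, 14 tRNA or rRNA like sequences lower and 6 of 24 nt higher, and 7 of the 5′ pairs had a relatively higher longer form. Without a filter these were 137 sequences higher, 128 lower, 25 family totals higher, 32 of 24 nt higher and 23 of the 5′ pairs. The numbers of sequences and of pairs change with the filter as well. These counts are therefore not shares and do not show a stronger or weaker pattern. Equal totals turned the sign of 47 sequences, 17 family totals and 6 list medians from above to below 0, none of them past the 2-fold limit in the authors' scale; under no alternative did a named sequence past that limit change sign. The opposite strand was relatively lower in 26 of 40 and 21 of 28 families under a looser and a stricter strand rule. Depth limits the scarce sequences most: a listed 0 allows up to 4.07 normalized reads at 0 mM.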
